A study of Mus musculus with 4 samples.

Results

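Cluster 11 is a group of oligodendrocyte- and astrocyte-rich spots that the authors' deposited clustering marked in 4 sagittal mouse brain sections profiled by spatial transcriptomics. Its members are the rows with cluster number 11 in the deposited tables, 581 of 14809 spots. A spot is a small patch of tissue that can hold several cells, and the authors gave each spot a share for each of 67 cell types. A share is relative to the other types of the spot, and fewer cells of a type and less RNA per cell cannot be told apart in it. All mice were wild type C57. Defeated mice were sorted by a social interaction test after chronic social defeat stress, in which an aggressor mouse repeatedly attacks another. The ketamine-treated susceptible mouse had been sorted as susceptible and got 10 mg/kg ketamine intraperitoneally 7 days before its brain was taken. The susceptible and resilient mice and the control mouse got saline, and the labels do not state whether the control mouse was defeated. Each group was 1 section, so a difference between groups is a difference between 2 sections, in which the mouse, the cutting plane and the slide cannot be told apart from the group. No age is given in the labels.

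Oligodendrocytes wrap axons in myelin, the insulating sheath that speeds conduction, and lie densest in white matter tracts. Astrocytes are star-shaped glia that feed neurons, clear transmitter from synapses and contact blood vessels. The third leading type, L2_IT_RSPv, carries the name of layer 2 intratelencephalic neurons of the ventral retrosplenial cortex. Of the 67 type names, 47 are glutamatergic neurons, 11 GABAergic neurons and 9 non-neuronal cells. No type name refers to the thalamus, midbrain, hindbrain or cerebellum, so neurons of those regions have no column of their own.

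Cluster 11 held 169 spots in the ketamine-treated, 72 in the susceptible, 237 in the resilient and 103 in the control section. This was 4.86% (exact 95% interval 4.17 to 5.63), 2.09% (1.64 to 2.63), 5.70% (5.02 to 6.45) and 2.76% (2.26 to 3.34) of the sections in that order. Intervals here are Clopper-Pearson intervals that cover counting error only, and neighbouring spots are not independent. The ketamine-treated and resilient sections had overlapping intervals, as did the susceptible and control sections, and the first pair lay above the second. Cluster 1, which has the same leading types, had 501, 605, 885 and 929 spots, so that cluster 11 had 0.337, 0.119, 0.268 and 0.111 spots for each cluster 1 spot. For a type seen in 0 spots, a limit of 3 spots over the number of spots was used, which is narrower than the upper end of the exact interval. This limit was 1.78% of cluster 11 spots in the ketamine-treated, 4.17% in the susceptible, 1.27% in the resilient and 2.91% in the control section, where the exact intervals for 0 spots end at 2.16%, 4.99%, 1.54% and 3.52%.

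The label of the cluster fitted its shares in part. Oligo, Astro and L2_IT_RSPv were the top 3 types by mean share in the ketamine-treated, susceptible and control sections. In the resilient section L2_IT_RSPv was the fourth type, behind Pvalb, the fast-spiking parvalbumin interneurons. Oligo led the list in the susceptible and control sections, and Astro in the ketamine-treated and resilient sections. The clusters were drawn on the same spots, so their shares are described and not tested.

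Oligo had a mean share of 19.7% of a cluster 11 spot in the ketamine-treated, 25.2% in the susceptible, 25.9% in the resilient and 38.7% in the control section. The control section was the highest, and the ketamine-treated section the lowest. Oligo was held by 74 of 169 ketamine-treated spots (43.8%, 36.2 to 51.6), 39 of 72 susceptible spots (54.2%, 42.0 to 66.0), 120 of 237 resilient spots (50.6%, 44.1 to 57.2) and 69 of 103 control spots (67.0%, 57.0 to 75.9). The only pair of sections whose intervals lay apart was ketamine-treated and control. The resilient and control intervals overlapped narrowly. Where Oligo was held, it took on average 45.1%, 46.5%, 51.2% and 57.8% of the spot in the same order of sections. Both the percent of spots with Oligo and its share within them were highest in the control section. Spots at least 50% Oligo made up 14.8% of the ketamine-treated, 20.8% of the susceptible, 21.9% of the resilient and 39.8% of the control cluster. Spots given wholly to Oligo numbered 3, 3, 16 and 14.

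Oligodendrocyte precursors (OPC), the dividing cells that give rise to oligodendrocytes, were nearly absent from the kept shares. OPC was in 1 ketamine-treated, 2 susceptible, 2 resilient and 1 control spot, too few to set the sections apart.

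Astro had a mean share of 29.6% in the ketamine-treated, 24.7% in the susceptible, 30.3% in the resilient and 23.9% in the control section. It was held by 56.8% (49.0 to 64.4), 59.7% (47.5 to 71.1), 58.6% (52.1 to 65.0) and 50.5% (40.5 to 60.5) of the spots, and all of these intervals overlapped. The ratio of the Oligo to the Astro mean share was 0.668 in the ketamine-treated, 1.02 in the susceptible, 0.856 in the resilient and 1.62 in the control section. Together the 2 types took 49.3%, 49.9%, 56.2% and 62.6% of the spots.

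**Figure D1:**
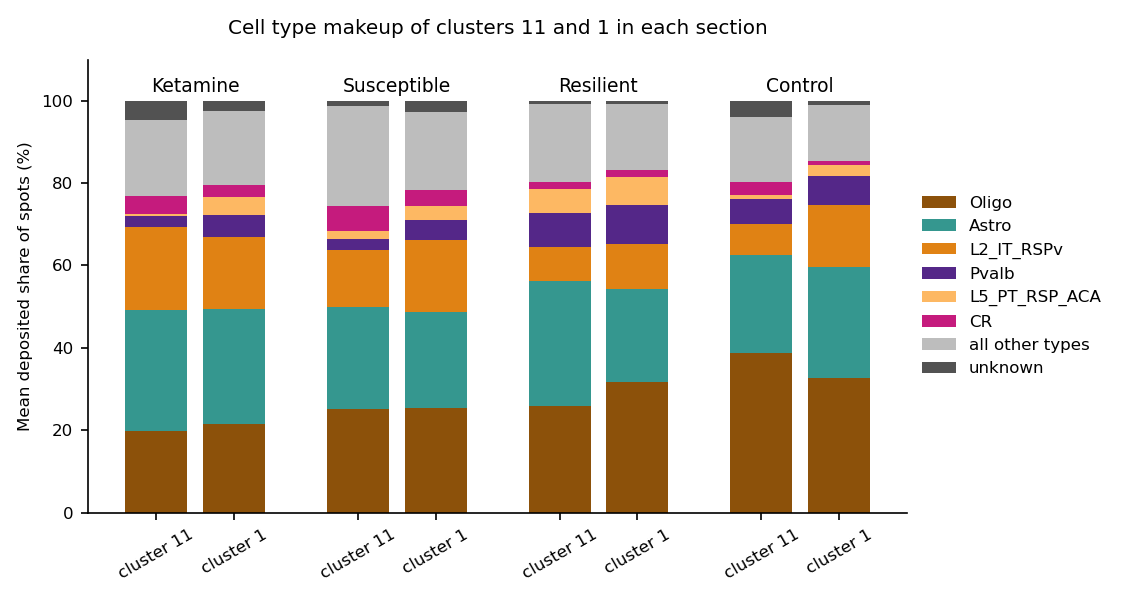
Mean deposited share of each cell type (percent of a spot, vertical axis) in cluster 11 and cluster 1 of each section; the bars sum to 100% and "Ketamine" is the ketamine-treated susceptible section. Oligo takes 19.7% of cluster 11 in the ketamine-treated section and 38.7% in the control section, and in each section the bars of both clusters look alike.

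Oligo and Astro were often in different spots. Both were in 26.0% of ketamine-treated, 27.8% of susceptible, 25.7% of resilient and 34.0% of control spots of the cluster. Astro without Oligo was in 30.8% (23.9 to 38.3), 31.9% (21.4 to 44.0), 32.9% (27.0 to 39.3) and 16.5% (9.92 to 25.1). The control section was the lowest here, and its interval lay apart from that of the resilient section alone. Oligo without Astro was in 17.8% (12.3 to 24.4) of ketamine-treated, 26.4% (16.7 to 38.1) of susceptible, 24.9% (19.5 to 30.9) of resilient and 33.0% (24.1 to 43.0) of control spots. Among spots with Oligo, 59.5%, 51.3%, 50.8% and 50.7% also held Astro. Among spots without Oligo, 54.7%, 69.7%, 66.7% and 50% held it. The shares within a spot are not independent of each other, and the lowest kept share above 0 in cluster 11 was 12.6%.

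**Figure D2:**
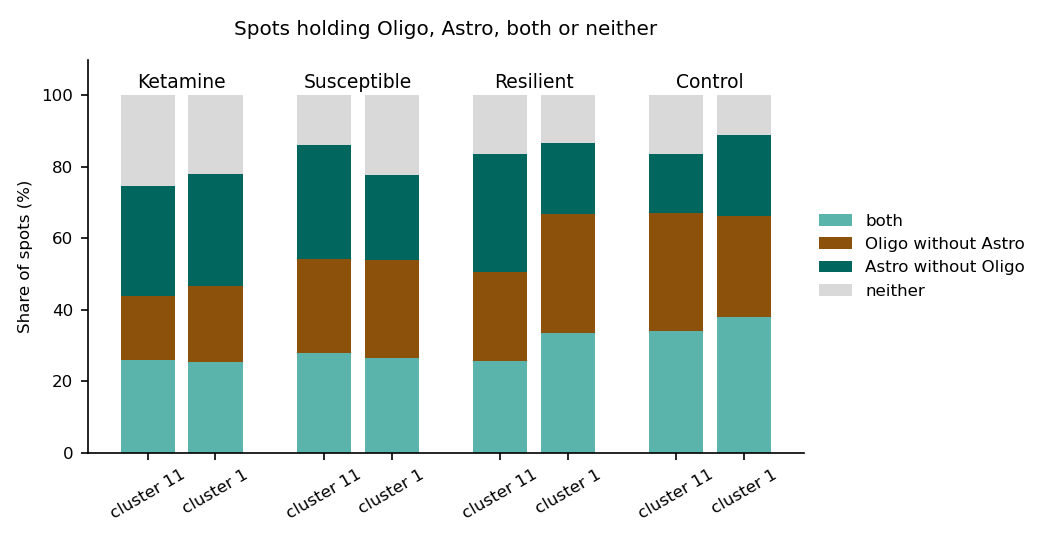
Share of spots (percent, vertical axis) that held both Oligo and Astro, 1 of them or neither, in clusters 11 and 1 of each section. In cluster 11, Astro without Oligo takes 30.8 to 32.9% of spots in the ketamine-treated, susceptible and resilient sections and 16.5% in the control section.

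The most frequent makeups of a spot were simple. In the control cluster 11, 19 of 103 spots held Oligo and Astro and nothing else, 14 Oligo alone and 7 Astro alone. In the resilient section Astro alone came first, with 29 of 237 spots, ahead of Oligo with Astro at 20 and Oligo alone at 16. In the ketamine-treated section Astro alone was in 18 of 169 spots, Astro with L2_IT_RSPv in 16 and Oligo with Astro in 15. In the susceptible section Oligo with Astro was in 7 of 72 spots and Astro with L2_IT_RSPv in 5. The mean number of types per spot was 2.09, 2.53, 2.34 and 2.07 in the ketamine-treated, susceptible, resilient and control sections, so susceptible spots were the most mixed.

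L2_IT_RSPv had a mean share of 20.0% in the ketamine-treated, 13.9% in the susceptible, 8.18% in the resilient and 7.46% in the control section. It was held by 69 of 169 ketamine-treated spots (40.8%, 33.3 to 48.6), 22 of 72 susceptible spots (30.6%, 20.2 to 42.5), 51 of 237 resilient spots (21.5%, 16.5 to 27.3) and 21 of 103 control spots (20.4%, 13.1 to 29.5). The ketamine-treated interval lay above those of the resilient and control sections, and the susceptible interval overlapped all of them. Of the 4 types named for the retrosplenial or anterior cingulate cortex, this one supplied most of the summed share, which was 21.3%, 15.8%, 14.3% and 8.83% in the same order.

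Types named for layers 2 to 4 together took 21.9%, 15.6%, 10.8% and 8.30% of the share in the ketamine-treated, susceptible, resilient and control sections, most of it L2_IT_RSPv. Several other cortical and hippocampal types were in few or no spots. L5_IT_CTX, the intratelencephalic neurons of layer 5, was in 0 of 581 cluster 11 spots, where the limit of 3 spots is 0.516%, against 7.74 to 10.4% of the other spots of each section. L2_3_IT_CTX, their upper-layer counterpart, was also in 0 spots, against 3.44 to 4.30% of the others. L6_CT_CTX, corticothalamic neurons of layer 6, was in 1 spot, against 5.13 to 7.30% of the others. Granule neurons of the dentate gyrus (DG) were in 0 spots and CA1 pyramidal neurons in 2, against 0.998 to 1.66% and 1.45 to 2.07% of the others. Cluster 1 nearly lacked these types as well, so this does not set cluster 11 apart from it. Their cluster 1 means over sections were 0.0551% for L5_IT_CTX, 0.0230% for L6_CT_CTX, 0.0171% for DG and 0% for L2_3_IT_CTX and CA1. By mean share, Oligo and Astro also filled much of the rest of the sections, at 12.3 to 21.8% and 20.6 to 22.2%, whereas L2_IT_RSPv had 3.78 to 6.03% there. Of the 67 types, 25 were in no cluster 11 spot and 18 were in cluster 11 of every section.

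By the mean over sections, Pvalb (5.00%), CR (3.81%) and L5_PT_RSP_ACA (2.30%) were the next neuronal types, closely followed by Meis2, a GABAergic type (2.17%). The order differed between sections. In the susceptible section Meis2 had 5.87%, more than Pvalb and L5_PT_RSP_ACA. In the ketamine-treated section Sst_Chodl had 2.68%, more than L5_PT_RSP_ACA. Pvalb had a mean share of 2.79% in the ketamine-treated, 2.78% in the susceptible, 8.42% in the resilient and 6.0% in the control section. It was in 7.10% (3.72 to 12.1), 8.33% (3.12 to 17.3), 23.6% (18.4 to 29.6) and 17.5% (10.7 to 26.2) of the spots. The resilient interval lay above those of the ketamine-treated and susceptible sections, and the control interval overlapped all of them. L5_PT_RSP_ACA, named for layer 5 pyramidal-tract neurons of the retrosplenial and cingulate cortex, stood at 0.535%, 1.94%, 5.69% and 1.02%. It was in 3 ketamine-treated, 5 susceptible, 45 resilient and 4 control spots, so most of its spots were in the resilient section. CR, named for Cajal-Retzius cells of the cortical surface, stood at 4.30%, 5.88%, 1.81% and 3.26%, in 16, 10, 13 and 7 spots.

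Vascular types together had 3.04% in the ketamine-treated, 7.95% in the susceptible, 4.22% in the resilient and 4.02% in the control section, and their spot shares overlapped. Endothelial cells (Endo), which line blood vessels, were in 7, 8, 14 and 5 spots. Microglia and macrophages, the immune cells of the brain, took 0.740%, 0.955%, 0.963% and 1.33% of the share. Spots given no type were 8, 1, 2 and 4.

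**Figure D3:**
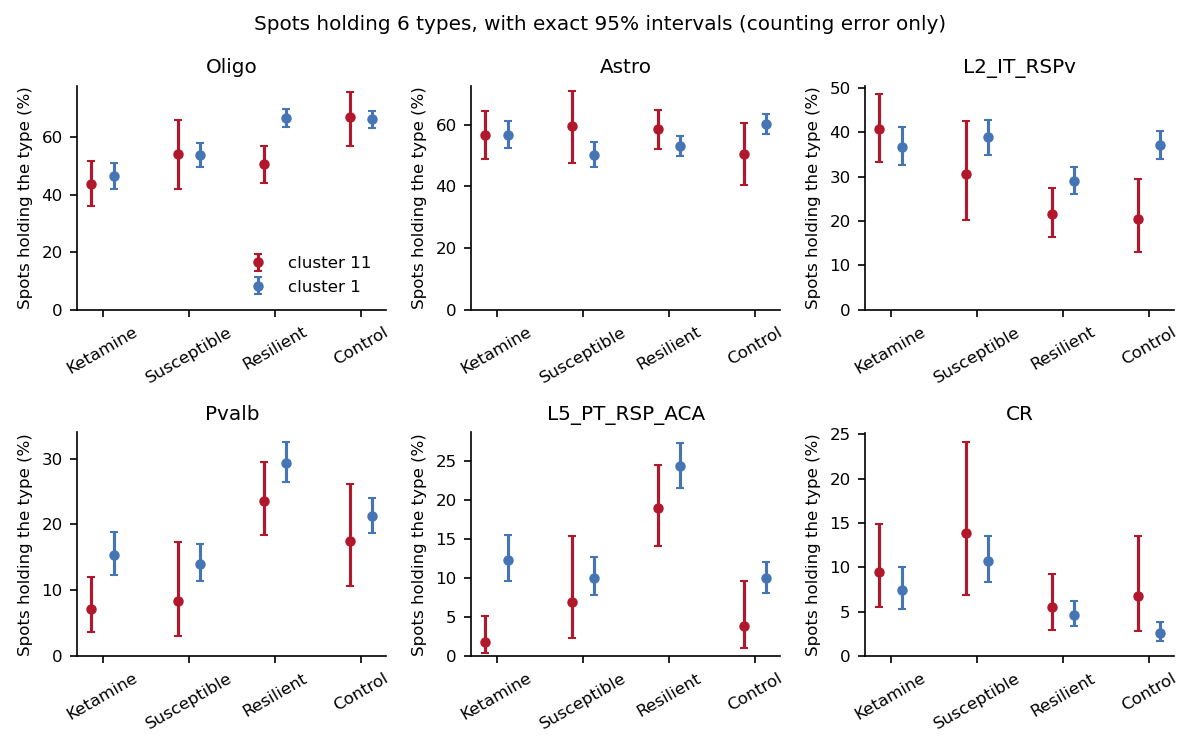
Percent of spots holding each of 6 types in cluster 11 and cluster 1 of each section, with exact 95% intervals that cover counting error only. Pvalb and L5_PT_RSP_ACA lie lower in cluster 11 than in cluster 1 in each section, with overlapping intervals in some of them.

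The makeup of cluster 11 was close to that of cluster 1. Between 2 mean profiles, the share assigned differently was taken as the sum, over types, of what the first profile holds in excess of the second. Cluster 11 differed from cluster 1 by 13.0% in the ketamine-treated, 15.3% in the susceptible, 13.9% in the resilient and 18.4% in the control section. Cluster 1 was its nearest cluster in all 4 sections among those with at least 20 spots. The next nearest stood at 30.8% (cluster 4) in the ketamine-treated, 35.7% (cluster 15) in the susceptible, 32.7% (cluster 15) in the resilient and 21.8% (cluster 15) in the control section. The same cluster 11 differed between pairs of sections by 21.4 to 27.7%, more than it differed from cluster 1 within any section. Cluster 1 differed between pairs of sections by 9.60 to 20.5%. This measure grows when few spots are averaged, and cluster 11 has fewer spots than cluster 1.

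**Figure D4:**
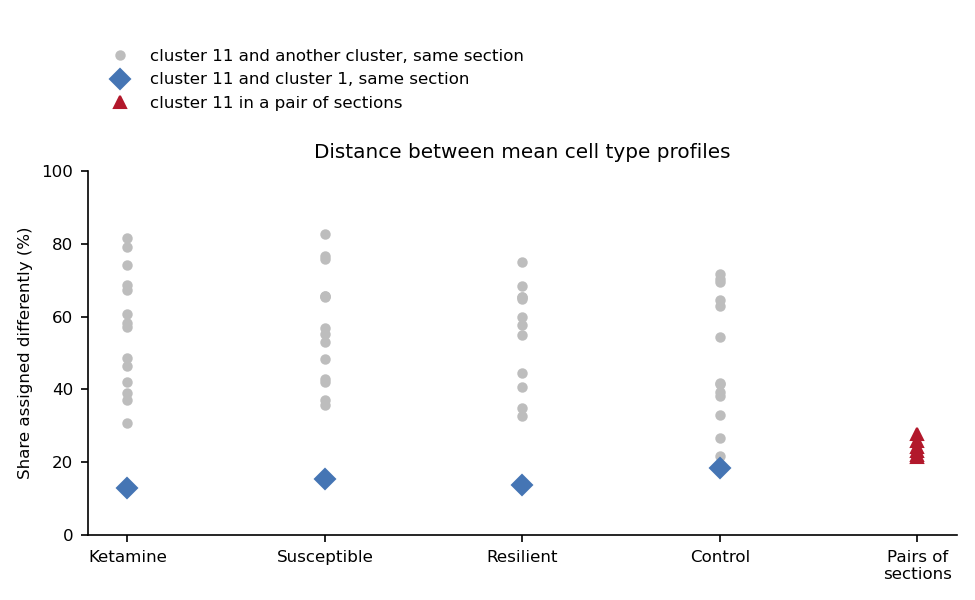
Share assigned differently between 2 mean cell type profiles (percent, vertical axis): cluster 11 against each other cluster of its section, and cluster 11 against itself in pairs of sections. The pair of clusters 11 and 1 lies lowest in each section, at 13.0 to 18.4%.

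Within this likeness, a few types lay on the same side of cluster 1 in every section. Among 18 types that reached a mean of 1% in either cluster of any section, 3 were higher in cluster 11 in all 4 sections and 3 were lower in all 4. Higher were CR (mean over sections 3.81% in cluster 11 against 2.37% in cluster 1), Endo (2.13% against 0.927%) and L4_5_IT_TPE_ENT (0.647% against 0.260%). Lower were L5_PT_RSP_ACA (2.30% against 4.26%), Pvalb (5.00% against 6.77%) and Micro, the microglia (0.630% against 1.24%). L4_5_IT_TPE_ENT is named for layers 4 and 5 of temporal, perirhinal, ectorhinal and entorhinal areas and was in 11 cluster 11 spots in all. By spots holding it, this type was nearly equal in the resilient section, at 2.53% against 2.60%. CR was also nearly equal there by mean share, at 1.81% against 1.75%.

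For Endo, the spot intervals of cluster 11 and cluster 1 lay apart in the susceptible section (11.1%, 4.92 to 20.7, against 2.64%, 1.52 to 4.26). They overlapped in the other 3 sections. For Pvalb they lay apart in the ketamine-treated section (7.10%, 3.72 to 12.1, against 15.4%, 12.3 to 18.8), and for L5_PT_RSP_ACA in the same section (1.78%, 0.368 to 5.10, against 12.4%, 9.62 to 15.6). For CR, Micro and L4_5_IT_TPE_ENT they overlapped in every section. L6b_CTX, deep neurons at the border of the white matter, was in 5 resilient cluster 11 spots against 1 cluster 1 spot, with intervals apart (0.688 to 4.85% against 0.00286 to 0.628%). This type did not reach a mean of 1% in either cluster of any section. It was in 0 ketamine-treated, 0 susceptible and 2 control cluster 11 spots.

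The 3 leading types did not keep 1 direction. Oligo in cluster 11 against cluster 1 was 19.7% against 21.6% in the ketamine-treated, 25.2% against 25.3% in the susceptible, 25.9% against 31.6% in the resilient and 38.7% against 32.6% in the control section. It was lower in 3 sections and higher in the control section. Oligo was in 50.6% of resilient cluster 11 spots (44.1 to 57.2) against 66.8% of cluster 1 spots (63.6 to 69.9), which lay apart. Astro was higher in cluster 11 in the ketamine-treated, susceptible and resilient sections and lower in the control section, at 23.9% against 27.1%. By spots holding it, Astro in the ketamine-treated section was nearly equal, at 56.8% against 56.9%, and by spots it led it was lower in the susceptible section, at 19.4% against 26.1%. In the resilient section it stood at 30.3% against 22.6%. L2_IT_RSPv was higher in the ketamine-treated section (20.0% against 17.4%) and lower in the others. In the control section it was in 20.4% of cluster 11 spots (13.1 to 29.5) against 37.1% of cluster 1 spots (34.0 to 40.3). L2_IT_RSP_ACA, the neighbouring layer 2 type, was in 0 of 103 control cluster 11 spots against 46 of 929 in cluster 1.

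The 4 retrosplenial and cingulate types together were lower in cluster 11 in each section, at 21.3% against 22.5%, 15.8% against 21.0%, 14.3% against 18.6% and 8.83% against 19.5%, in the order ketamine-treated, susceptible, resilient and control. The 4 vascular types together were higher, at 3.04% against 2.92%, 7.95% against 2.23%, 4.22% against 3.80% and 4.02% against 2.37%. Of these types, Endo alone was higher in every section. Pericytes (Peri) and vascular leptomeningeal cells (VLMC) were lower in 1 section each, and smooth muscle cells (SMC) in 3. The intervals of spots holding any vascular type lay apart only in the susceptible section (19.4%, 11.1 to 30.5, against 6.45%, 4.62 to 8.71). Cluster 11 spots also held fewer types in 3 of 4 sections. The mean was 2.09 against 2.29 in the ketamine-treated, 2.34 against 2.60 in the resilient and 2.07 against 2.36 in the control section. In the susceptible section it was 2.53 against 2.36.

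Counting types that reached a mean of 1% in either cluster, 8 of 15 differed by at least 1.5-fold in the ketamine-treated section (53.3%), 9 of 14 in the susceptible (64.3%), 3 of 13 in the resilient (23.1%) and 8 of 14 in the control section (57.1%). Meis2 was 2.06-fold higher in cluster 11 in the ketamine-treated section, in 7 against 15 spots, and 2.30-fold higher in the susceptible section, in 13 against 52 spots. In the control section CR was 3.73-fold higher, in 7 against 24 spots, and L2_IT_RSPv was past the fold on the lower side (7.46% against 14.9%). Endo was past the fold in the ketamine-treated (1.71-fold), susceptible (4.65-fold) and control (2.57-fold) sections, each time on 5 to 8 cluster 11 spots. Peri was 1.54-fold higher in the ketamine-treated and 2.23-fold higher in the susceptible section. L5_PT_RSP_ACA and Micro were past the fold on the lower side in these same 3 sections as Endo. The 3 types past the fold in the resilient section were all higher in cluster 11, namely Sst_Chodl (1.77-fold), NP_SUB (1.61-fold) and L4_5_IT_TPE_ENT (1.57-fold). Sst_Chodl is named for long-range somatostatin interneurons. NP_SUB lay the other way in the susceptible section, at 1.02% against 2.56%, and so did Sst_Chodl in the control section, at 0.816% against 1.42%. In the resilient section, where cluster 11 had the most spots, no type that was counted differed by 2-fold. The part of a small number of spots in these counts was not tested.

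The deposited t-SNE, a map that places spots with similar expression near each other, kept the clusters apart although their cell type shares were alike. Of the 10 nearest spots to a cluster 11 spot, 92.2% were in cluster 11 and 3.20% in cluster 1, which held 3.92% and 19.7% of all spots. The share of neighbours in cluster 11 was 96.0% in the ketamine-treated, 93.1% in the susceptible, 90.0% in the resilient and 90.5% in the control section. For 541 of the 581 spots, most neighbours were in cluster 11. For 7, most were in cluster 1. Of the neighbours of cluster 1 spots, 0.688% were in cluster 11. How the map and the clusters were made is not given in the sources used here, and both describe the same spots, so this is a description and not a test. Of the neighbours of cluster 11 spots, 39.5% came from the spot's own section in the ketamine-treated, 19.7% in the susceptible, 43.5% in the resilient and 23.7% in the control section. Those sections supplied 29.1%, 12.4%, 40.8% and 17.7% of the cluster 11 spots. In each section most neighbours thus came from other sections, but the spot's own section was more frequent among them than its part of the cluster. The genes that separate the clusters were not analysed here.

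**Figure D5:**
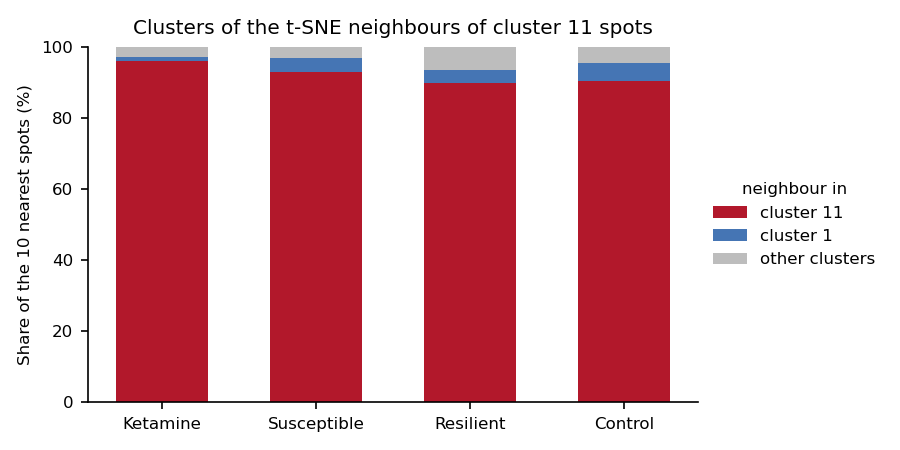
Clusters of the 10 nearest t-SNE neighbours (percent, vertical axis) of cluster 11 spots, by section. Cluster 11 supplies 90.0 to 96.0% of the neighbours and cluster 1 1.18 to 4.95%.

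The susceptible section was set against the control section to see how cluster 11 differed in a mouse sorted as susceptible after defeat. Oligo was lower, at 25.2% in the susceptible and 38.7% in the control section, which is −13.5 percentage points, and the spot intervals overlapped. In cluster 1 the difference was −7.27 points, at 25.3% against 32.6%, and the spot intervals lay apart. Over all spots outside cluster 11 Oligo was lower too, at 13.6% against 21.8%. In cluster 11, L2_IT_RSPv was 1.86-fold higher and Astro near equal, at 1.03-fold. Meis2, a GABAergic type named for a transcription factor gene, was at 5.87% against 0.448%, in 13 of 72 spots (18.1%, 9.98 to 28.9) against 2 of 103 (1.94%, 0.236 to 6.84). In cluster 1 it was in 8.60% of susceptible against 2.48% of control spots, with intervals also apart. Among the 14 types that reached a mean of 1% in cluster 11 of either section, 12 were past 1.5-fold (85.7%, against 33.3% of types over the whole sections). The other 2 were Astro and NP_SUB. In cluster 1, 5 of 13 types were past the fold. Ratios in cluster 11 rest on fewer spots than those in cluster 1 or in whole sections, here and in the comparisons below. Many of the 12 rest on few spots, and of the 6 cluster 11 types that at least 10 spots of either section held, 5 differed. These were Meis2, CR (1.81-fold) and L2_IT_RSPv, which were higher, and Oligo and Pvalb (2.78% against 6.0%), which were lower. L5_PPP was in 0 susceptible spots and 2 control spots.

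Among types in fewer spots, Endo took 3.65% of susceptible and 1.58% of control spots. Pericytes (Peri), which wrap capillaries, were at 2.36% against 1.18%, Sst_Chodl at 2.19% against 0.816% and L5_PT_RSP_ACA at 1.94% against 1.02%. SMC, the smooth muscle cells of vessel walls, were at 1.62% against 0.284% in 2 spots and 1 spot. Ndnf_HPF interneurons were at 1.22% against 2.26%. The spot intervals of all these types overlapped between the sections.

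The resilient section, from a defeated mouse that was not susceptible, was set against the control section. Oligo stood at 25.9% in resilient and 38.7% in control spots, −12.8 points apart, and the spot intervals overlapped. In cluster 1 it was at 31.6% against 32.6%, a difference of −0.965 points. Over all spots outside cluster 11 it was at 15.4% against 21.8%. The difference between these values in the clusters was not tested. Astro was 1.27-fold higher and L2_IT_RSPv 1.10-fold higher, both with overlapping intervals. L5_PT_RSP_ACA had 5.69% against 1.02%, or 5.56-fold. It was in 45 of 237 resilient spots (19.0%, 14.2 to 24.6) and 4 of 103 control spots (3.88%, 1.07 to 9.65), and these intervals lay apart. They also lay apart in cluster 1, at 24.4% (21.6 to 27.4) of resilient and 10.0% (8.16 to 12.1) of control spots. Past 1.5-fold were 7 of 13 types in cluster 11 (53.8%, against 39.1% over the whole sections) and 5 of 13 in cluster 1. Sst_Chodl (2.51-fold), L4_5_IT_TPE_ENT (2.11-fold) and NP_SUB (1.79-fold) were also higher, while CR (1.81% against 3.26%), Ndnf_HPF (1.47% against 2.26%) and L5_PPP (0.464% against 1.45%) were lower. By spots holding them these 3 were closer, with CR in 13 of 237 against 7 of 103 spots (5.49% against 6.80%), Ndnf_HPF in 10 against 5 (4.22% against 4.85%) and L5_PPP in 4 against 2 (1.69% against 1.94%). The spot intervals of all types in this comparison except L5_PT_RSP_ACA overlapped.

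The susceptible section was set against the resilient section, both from defeated mice. Oligo was nearly equal, at 25.2% and 25.9%, while in cluster 1 it stood at 25.3% and 31.6%. The spot intervals of Oligo overlapped in cluster 11 and lay apart in cluster 1. Pvalb was lower, in 8.33% of susceptible spots against 23.6% of resilient spots, with intervals apart. Meis2 was higher, in 18.1% (9.98 to 28.9) against 2.53% (0.935 to 5.43). CR (3.25-fold) and L2_IT_RSPv (1.69-fold) were higher, and L5_PT_RSP_ACA (1.94% against 5.69%) and NP_SUB, near-projecting neurons of the subiculum (1.02% against 2.73%), were lower. The spot intervals of CR, L2_IT_RSPv, L5_PT_RSP_ACA and NP_SUB overlapped. NP_SUB was in 3 of 72 susceptible and 15 of 237 resilient spots. Astro was at 24.7% against 30.3% by mean share and at 59.7% against 58.6% by spots holding it. The vascular types Endo (1.80-fold), Peri (2.19-fold) and SMC (5.20-fold) were higher. They were in 8, 4 and 2 of 72 susceptible spots and 14, 7 and 3 of 237 resilient spots. VLMC, which did not reach a mean of 1%, was lower, at 0.323% against 0.810%. L4_5_IT_TPE_ENT was lower too (0.583% against 1.03%), and the intervals of these 5 types overlapped. Past 1.5-fold were 10 of 14 types in cluster 11 (71.4%, against 43.5% over the whole sections) and 8 of 13 in cluster 1. The Pvalb and Meis2 intervals lay apart in cluster 1 too. There Pvalb was in 14.0% of susceptible against 29.4% of resilient spots, and Meis2 in 8.60% against 0.678%.

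Setting the ketamine-treated against the susceptible section compared a mouse given ketamine with a mouse given saline, both sorted as susceptible. The drug cannot be told apart here from the mouse, the cutting plane and the slide. Oligo took 19.7% of ketamine-treated and 25.2% of susceptible spots, −5.44 points apart, and the intervals overlapped. In cluster 1 it stood at 21.6% against 25.3%. Astro was at 29.6% against 24.7% and L2_IT_RSPv at 20.0% against 13.9% (1.44-fold), also with overlapping intervals. By spots holding Astro the direction was the other way, at 56.8% against 59.7%. Meis2 was lower, in 7 of 169 spots (4.14%, 1.68 to 8.35) against 13 of 72 (18.1%, 9.98 to 28.9). These intervals lay apart, and so did those in cluster 1, at 2.99% of ketamine-treated against 8.60% of susceptible spots. Pvalb was equal within 0.010 points. Past 1.5-fold were 9 of 15 types (60%, against 14.3% over the whole sections), while in cluster 1 it was 1 of 12. Of the 15, 6 were held by at least 10 spots of either section, and 1 of these 6 differed, which was Meis2. Among the others, Endo was at 1.27% against 3.65%, Peri at 1.30% against 2.36% and SMC at 0.197% against 1.62%, so each vascular type that was counted was lower. These were in 7, 5 and 1 of 169 ketamine-treated spots and 8, 4 and 2 of 72 susceptible spots, and their spot intervals overlapped. L5_PT_RSP_ACA was at 0.535% against 1.94%. NP_SUB (1.93-fold) and Ndnf_HPF (1.78-fold) were higher. L5_PPP and NP_PPP were each in 3 ketamine-treated and 0 susceptible spots.

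The ketamine-treated section had the widest gap to the control section in Oligo, at 19.7% against 38.7%, a difference of −19.0 points. The spot intervals lay apart (43.8%, 36.2 to 51.6, against 67.0%, 57.0 to 75.9). In cluster 1 the difference was −11.0 points. Over all spots outside cluster 11 Oligo was lower too, at 12.3% against 21.8%. In cluster 11, L2_IT_RSPv was 2.68-fold higher, with intervals apart. Astro was 1.24-fold higher. Pvalb was lower, at 2.79% against 6.0%, with overlapping intervals. Past 1.5-fold were 7 of 14 types in cluster 11 (50%, against 27.3% over the whole sections) and 6 of 11 in cluster 1. Of the 5 cluster 11 types that at least 10 spots of either section held, 3 differed. These were Oligo, L2_IT_RSPv and Pvalb. Meis2 (3.34-fold) and Sst_Chodl (3.29-fold) were higher and L5_PT_RSP_ACA lower, in 7, 8 and 3 ketamine-treated spots. NP_PPP was in 3 ketamine-treated spots and 0 control spots. The comparisons with the control section share its 103 spots, so they are not independent of each other.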

How the data were processed

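Spatial transcriptomes of 4 mouse brain sections were used, 1 per group. The authors deposited, per spot, a cluster number and the fraction assigned to each of 67 cell types, which sum to 1 with unknown. They also deposited t-SNE coordinates, a score without unit. The submitters' processing notes name the genome build mm10. How spots were clustered, and by which method and reference the cell type fractions were made, is not given in the sources used here. Gene counts, spot positions and depth per spot were not analysed here, so precision rests on the number of spots. The cluster numbers were taken as 1 clustering of all sections. The t-SNE barcodes were joined to sections by their barcode sets, each of which equalled 1 section's set. The sections share 2503 barcodes, which mark positions on the array and not tissue.

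The mean fraction per type, in percent, was the main measure, with exact Clopper-Pearson intervals for shares of spots. No test was run, since each group has 1 section. Types named were Oligo, OPC, Astro and L2_IT_RSPv in each comparison, and up to 10 per direction with a mean of at least 1%. Ratios were counted at 1.5-fold. The members and lists were chosen with earlier results of these data known. The comparison was tested on simulated data, and the result of that test is not given here. The part of a small number of spots in the counts past 1.5-fold was not tested. Python 3.11.15, pandas 2.3.3, numpy 2.4.6 and scipy 1.17.1 were used.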

Additional observations from a re-analysis of the deposited data

Results flagged for a closer look

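Each of these types differed between a pair of sections by at least 1.5-fold in 1 direction in cluster 11 and by at least 1.5-fold in the other direction in cluster 1. The difference between the clusters was not tested. CR in the resilient against the control section differed by −1.45 points in cluster 11 (1.81% against 3.26%) and by 0.871 points in cluster 1 (1.75% against 0.874%). L5_PT_RSP_ACA in the ketamine-treated against the control section differed by −0.489 points in cluster 11 (0.535% against 1.02%) and by 1.66 points in cluster 1 (4.34% against 2.68%). NP_SUB in the susceptible against the resilient section differed by −1.70 points in cluster 11 (1.02% against 2.73%) and by 0.870 points in cluster 1 (2.56% against 1.69%). Endo in the susceptible against the resilient section differed by 1.63 points in cluster 11 (3.65% against 2.02%) and by −0.786 points in cluster 1 (0.784% against 1.57%). In cluster 11 these values rest on 3 to 15 spots per section.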

How the results depend on the processing

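The 5 alternatives were the share of spots holding a type, the share of spots it led, no wholly unknown spots, shares under 12% set to 0, and spots with at most 2 types. Between sections, Oligo kept its direction in 24 of 25 values, Astro in 22 of 25 and L2_IT_RSPv in 25 of 25. Between clusters 11 and 1 they kept it in 18, 18 and 20 of 20. The Oligo difference between the susceptible and resilient sections was −0.751 points by mean share and 3.53 points by spots holding it. For Astro it was −5.59 and 1.07 points there, 4.85 and −2.92 points between ketamine-treated and susceptible, and between susceptible and control 0.792 points against −1.91 by spots led. In the resilient section, the Oligo difference between clusters 11 and 1 was −16.1 points by spots holding it and −5.67 by mean share. The cause was not tested.

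The counts of types past the fold moved most. With a floor of 0.5%, which admits more types, the count in the susceptible against the control section was 20, against 12, then 12 against 7 for resilient and control, 14 against 7 for ketamine-treated and control, 17 against 10 for susceptible and resilient, and 17 against 9 for ketamine-treated and susceptible. Between clusters 11 and 1 it was 13 against 8 in the ketamine-treated, 15 against 9 in the susceptible, 9 against 3 in the resilient and 14 against 8 in the control section. With a threshold of 2-fold it was 7 for susceptible and control, 4 for resilient and control, and between the clusters 4, 5 and 0 in the ketamine-treated, susceptible and resilient sections. By spots holding a type it was 4 for resilient and control, and between the clusters 5 in the ketamine-treated and 1 in the resilient section. Counting only types that at least 10 spots of either set held, an alternative chosen after seeing the data, gave 5, 3 and 1 for susceptible and control, ketamine-treated and control, and ketamine-treated and susceptible.

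With neighbours from the same section only, 5.66% of t-SNE neighbours were in cluster 1, against 3.20%. No paired analysis was possible because each group has 1 section. The 72 susceptible spots limit that section's intervals.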
